A study of Mus musculus with 6 samples.

Results

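The genes described here encode the constitutive proteasome. They were taken as every gene of the deposited mouse (mm10) table whose symbol begins with *Psma*, *Psmb*, *Psmc*, *Psmd*, *Psme*, *Psmf* or *Psmg* and a number, leaving out the immunosubunit genes *Psmb8*, *Psmb9* and *Psmb10*. The rule used no measured value. It found 47 of 24532 genes, and 46 of them had at least 1 read in each of the 6 libraries. By known role, 8 genes encode the alpha ring and 8 the beta ring of the 20S core, 6 the ATPase ring and 11 the other subunits of the 19S cap, 6 are activators or the inhibitor and 7 are assembly factors. The last gene, *Psmc3ip*, is taken in by its letters only, and encodes a meiotic recombination factor that binds the product of *Psmc3*.

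The proteasome is the protease that degrades ubiquitin-tagged proteins in the cytosol and nucleus. Its barrel-shaped 20S core has outer alpha rings that gate the entry and inner beta rings, of which the products of *Psmb6*, *Psmb7* and *Psmb5* cut the substrate. The 19S cap captures the ubiquitin chain, removes it and uses ATP to unfold the protein and push it into the core, and the whole assembly is called the 26S proteasome. Cells exposed to interferon can replace the catalytic subunits with immunosubunits and make more of the PA28 activator. When proteasome activity falls short, the transcription factor encoded by *Nfe2l1* is known to raise transcription of the subunit genes together.

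The libraries came from RNA of primary articular chondrocytes, the cartilage cells of the joint, taken from the knee (tibial plateaus and femoral condyles) of ICR pups aged 5 days. The cells received 50 nM *Sephs1* siRNA in 3 libraries and 50 nM negative control siRNA in the other 3, with 12 h of transfection and then 48 h in fresh medium, and transfection was done 2 times in both groups. *Sephs1* encodes a member of the selenophosphate synthetase family, and the comparison asked which transcripts differ after its knockdown. All cells were maintained in serum-containing medium at low oxygen, and the methods give serum-free conditions for the transfection step. An untransfected group was not analysed here. The sources call the libraries biological replicates and do not say which animals or cultures each came from, so the p-values measure the spread between these libraries.

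Read totals were between 62316889 and 71080135 in the *Sephs1* siRNA libraries and between 58214060 and 80887889 in the control libraries. *Sephs1* stood at 36.1, 24.9 and 21.5 CPM (reads scaled to library size, with TMM factors between libraries) with *Sephs1* siRNA, and at 50.7, 44.7 and 44.7 CPM with control siRNA, a log2 fold change of -0.76 (standard error, SE, 0.19) and an edgeR adjusted p of 0.392, or 0.04 with the replicate number as a block. The 8 chondrocyte markers summed to between 88264 and 110070 CPM with *Sephs1* siRNA and to between 94181 and 125274 CPM with control siRNA. The 8 macrophage and leukocyte markers summed to between 8.76 and 11.1 CPM with *Sephs1* siRNA and to between 8.13 and 10.4 CPM with control siRNA, and *Itgam* and *Cd3e* had no read. The 6 fibroblast markers summed to between 19455 and 23036 CPM with *Sephs1* siRNA and to between 20608 and 26530 CPM with control siRNA. Within replicate pairs 1, 2 and 3, the chondrocyte sum was 104326, 110070 and 88264 CPM with *Sephs1* siRNA, against 115881, 125274 and 94181 CPM with control siRNA, and the fibroblast sum was 21155, 19455 and 23036 CPM with *Sephs1* siRNA, against 23862, 20608 and 26530 CPM with control siRNA. Both sums were lower with *Sephs1* siRNA in each pair, as most proteasome genes were. *Col2a1* makes up most of the chondrocyte sum, and *Col1a1* with *Col1a2* most of the fibroblast sum. By gene, 6 of 8 chondrocyte markers had log2 fold changes below 0 (median -0.09), and *Comp* (0.16) and *Hapln1* (0.15) stood above it. Of 6 fibroblast markers, 3 were below 0 (median -0.10), and *Dcn* (0.24), *Pdgfra* (0.27) and *Col3a1* (0.04) were above it. The part of these cells in the results was not tested.

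The promoters of the subunit genes are shown first, since co-regulation of the family is known to run through them. RefSeq windows of 300 bases, reaching from 250 before to 50 after a transcription start (GRCm38.p6), were at hand for 39 of the 47 genes, in 42 windows. *Psma7*, *Psmb3* and *Psmd14* are printed because they had 3 of the 4 smallest p-values among the genes lower with *Sephs1* siRNA (*Psmd7* had no entry), and *Psme1* because it encodes a subunit of the PA28 activator. Letters in capitals match one of 4 motifs on either strand. These are TGANNNNGC, a loose form of the antioxidant response element, and GAAANNGAA, a short core of the interferon-stimulated response element. The others are the interferon-gamma activated site TTCNNNGAA and the box CCAAT.
Psma7, chr2:180042415-180042714, minus strand: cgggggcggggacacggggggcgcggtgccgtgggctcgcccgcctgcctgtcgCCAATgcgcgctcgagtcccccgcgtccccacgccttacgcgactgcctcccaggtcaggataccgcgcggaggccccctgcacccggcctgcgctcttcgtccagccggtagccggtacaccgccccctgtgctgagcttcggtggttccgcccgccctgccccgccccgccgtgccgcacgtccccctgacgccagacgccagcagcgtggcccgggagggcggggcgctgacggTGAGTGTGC
Psmb3, chr11:97703184-97703483, plus strand: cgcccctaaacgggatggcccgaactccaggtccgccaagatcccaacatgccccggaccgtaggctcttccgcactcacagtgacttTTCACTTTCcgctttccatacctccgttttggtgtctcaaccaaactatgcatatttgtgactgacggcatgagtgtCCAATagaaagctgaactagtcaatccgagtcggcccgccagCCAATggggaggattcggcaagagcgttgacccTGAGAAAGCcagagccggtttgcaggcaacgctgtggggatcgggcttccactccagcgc
Psmd14, chr2:61711444-61711743, plus strand: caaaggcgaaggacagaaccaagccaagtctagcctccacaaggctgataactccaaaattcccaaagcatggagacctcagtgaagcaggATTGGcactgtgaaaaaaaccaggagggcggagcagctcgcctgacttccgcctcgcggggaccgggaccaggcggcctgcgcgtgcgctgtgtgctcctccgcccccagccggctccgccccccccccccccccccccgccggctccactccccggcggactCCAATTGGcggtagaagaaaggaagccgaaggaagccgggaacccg
Psme1, chr14:55578244-55578543, plus strand: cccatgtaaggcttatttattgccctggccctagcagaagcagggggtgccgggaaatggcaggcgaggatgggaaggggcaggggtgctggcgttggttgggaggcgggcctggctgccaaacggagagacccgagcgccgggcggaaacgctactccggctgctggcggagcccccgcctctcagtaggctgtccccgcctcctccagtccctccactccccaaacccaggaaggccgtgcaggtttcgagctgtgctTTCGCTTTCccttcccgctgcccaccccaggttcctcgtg

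The capitals of *Psma7* hold 1 CCAAT box and 1 match to the loose pattern TGANNNNGC. Those of *Psmb3* hold 1 match to that pattern, 1 match to GAAANNGAA and 2 CCAAT boxes. The window of *Psmd14* has 3 CCAAT boxes in all and no other match, and the last ones, on opposite strands, share bases in the second capital run. *Psme1* has 1 match to GAAANNGAA, which begins 10 bases after the start. Over the family, 24 of 42 windows (57.1%) held a match to TGANNNNGC, against 41.3% of all 32851 promoter windows of the same length. A pattern that common is no mark of the antioxidant response element itself. The 24 include *Psmc3ip*, which is no subunit, and overlapping windows of *Psme2* that hold the same site. The pattern GAAANNGAA was in 7 of 42 windows (16.7%) against 8.56% of all windows. The interferon-gamma site was in 2 (4.76%) against 8.3%, and the CCAAT box in 14 (33.3%) against 37.4%. Matching letters describe these windows and show no binding.

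The subunits of the core and the cap were abundant and close to one another in level. On the authors' FPKM scale, which divides by transcript length and library size, the 31 subunits of the 26S proteasome other than *Psma8* and *Psmb11* averaged between 33.8 FPKM (*Psmd11*) and 115 FPKM (*Psmb2*) over the 6 libraries, a 3.42-fold range. The 6 ATPases, which sit in the cap in equal number, were the tightest group, from 55.2 FPKM (*Psmc2*) to 70.7 FPKM (*Psmc3*), a 1.28-fold range. In the 20S core, *Psmb5* was the lowest of the beta subunits that were tested, at 39.9 FPKM, and the other 2 catalytic genes stood at 74.5 FPKM (*Psmb7*) and 81.3 FPKM (*Psmb6*). Most activators and all assembly factors were lower than these subunits, but *Psme3* at 37.2 FPKM and *Psme2* at 34.2 FPKM stood above *Psmd11*. *Psme3* and *Psmd5*, at 25.9 FPKM, were the highest of their groups, and *Psmf1* at 7.8 FPKM and *Psmd9* at 7.78 FPKM were among the lowest. FPKM compares mRNA, not the amount of protein.

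**Figure D1:**
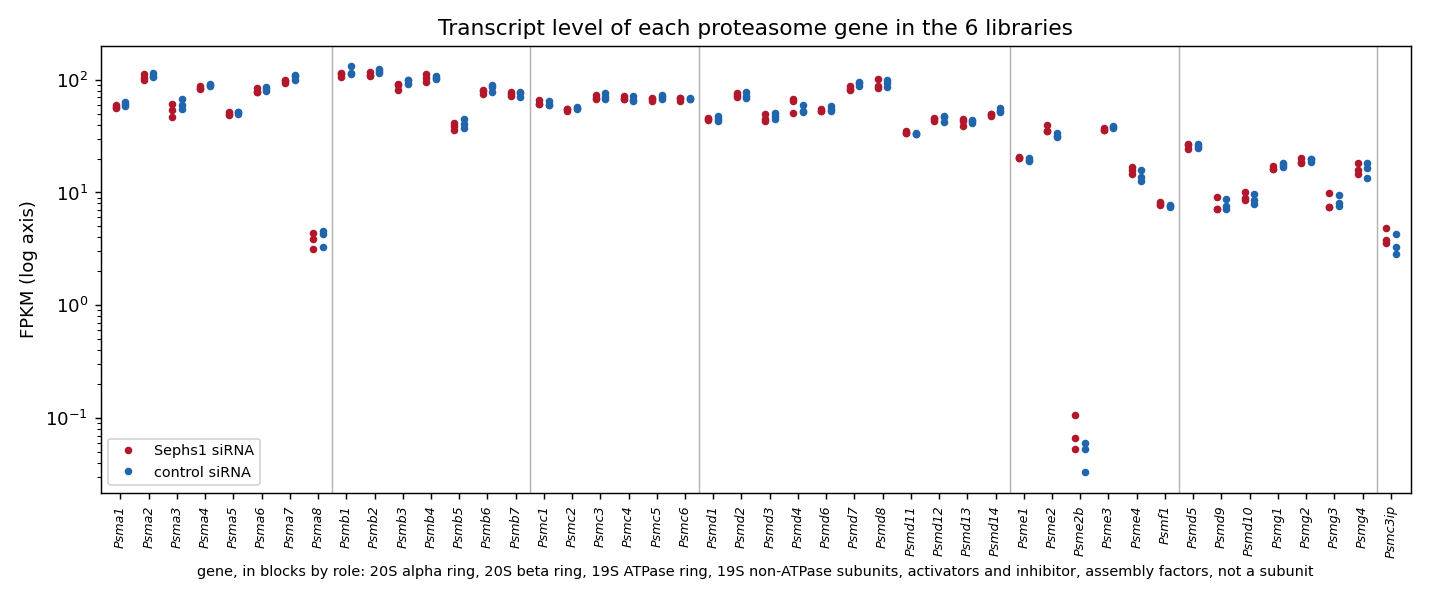
FPKM of the 46 tested genes (log axis) in each library, with *Sephs1* siRNA libraries to the left of control siRNA libraries for each gene and grey lines between role groups. Most core and cap subunits lie between 33.8 and 115 FPKM on average, *Psma8* at 3.92 and *Psme2b* at 0.0622 FPKM stand below them, and the groups of libraries sit close together for every gene but *Psme2b*.

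The copies known for restriction to other tissues were low. *Psmb11*, known as the catalytic subunit of thymic cortex, had 0, 5 and 0 reads with *Sephs1* siRNA and 1, 1 and 1 reads with control siRNA, and was the member left out of the test. *Psma8*, the germ cell counterpart of *Psma7*, had 3.9, 4.38 and 3.15 FPKM with *Sephs1* siRNA and 4.29, 4.55 and 3.26 FPKM with control siRNA, and its reads may be shared with *Psma7*. *Psme2b*, the gene with the lowest mean FPKM among those tested, had 4, 9 and 5 reads with *Sephs1* siRNA and 4, 3 and 5 reads with control siRNA, and may share reads with *Psme2*. Its log2 fold change of 0.59 had a 95% interval from -0.43 to 1.61.

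No gene of the family passed an adjusted p under 0.05 between *Sephs1* siRNA and control siRNA cells (0 of 46, edgeR), in the fit where 2 of 14223 genes (0.0141%) did. At an unadjusted p under 0.05, 4 of 46 were lower with *Sephs1* siRNA (*Psma7*, *Psmb3*, *Psmd7* and *Psmd14*), or 8.7% against 3.63% of all genes tested, and 0 of 46 were higher, against 4.98% of all genes. The count of 4 was 0 without control siRNA replicate 1 and 0 without *Sephs1* siRNA replicate 2. The count over all genes fell too, from 517 of 14223 to 299 of 14369 and 307 of 14287 in those fits. Without *Sephs1* siRNA replicate 2, *Psmd4* was higher at an unadjusted p, as was *Psme2* in limma fits of the FPKM values, where 0 were lower. Over all genes, 429 of 14287 were higher without that library. In the limma fits with 0.1 and 1 added before the log2, 290 and 288 of 14223 genes were lower and 1002 and 1021 were higher. Libraries with the same replicate number varied together, and with that number as a block 14 of 46 genes (30.4%) were lower at an unadjusted p, against 11.2% of all genes, 0 of 46 were higher, against 13.1%, and still 0 of 46 passed an adjusted p, against 1.65% (234 genes). Without replicate pairs 1, 2 and 3 in turn, the blocked count of lower genes was 5, 9 and 7 of 46. Over all genes tested in those fits it was 1043 of 14522, 1020 of 14351 and 1564 of 14411.

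The differences were small in size and mostly of one sign. The log2 fold change was below 0 in 38 of 46 genes and in 30 of the 31 core and cap subunits without *Psma8* and *Psmb11*, against 6823 of all 14223 genes (48.0%). The median was -0.09 over the 46 genes and -0.10 over those 31, against 0.01 over all genes tested. On the FPKM scale, which has no TMM scaling, 32 of 46 and 26 of 31 were below 0, with a median of -0.03 over the 46 genes and of 0.06 over all genes (0.1 added before the log2). The share of all genes below 0 on that scale was not counted. The family median minus that of all genes was -0.092 there (-0.070 with 1 added), against -0.097 in the edgeR fit. *Psmd4*, a ubiquitin receptor of the cap, was the exception among the 31. The 95% interval lay within a 1.5-fold change either way for 43 of 46 genes, all but *Psma8*, *Psmc3ip* and *Psme2b*, and for 60.5% of all genes tested, and the median standard error was 0.08 for the family and 0.14 for all genes.

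**Figure D2:**
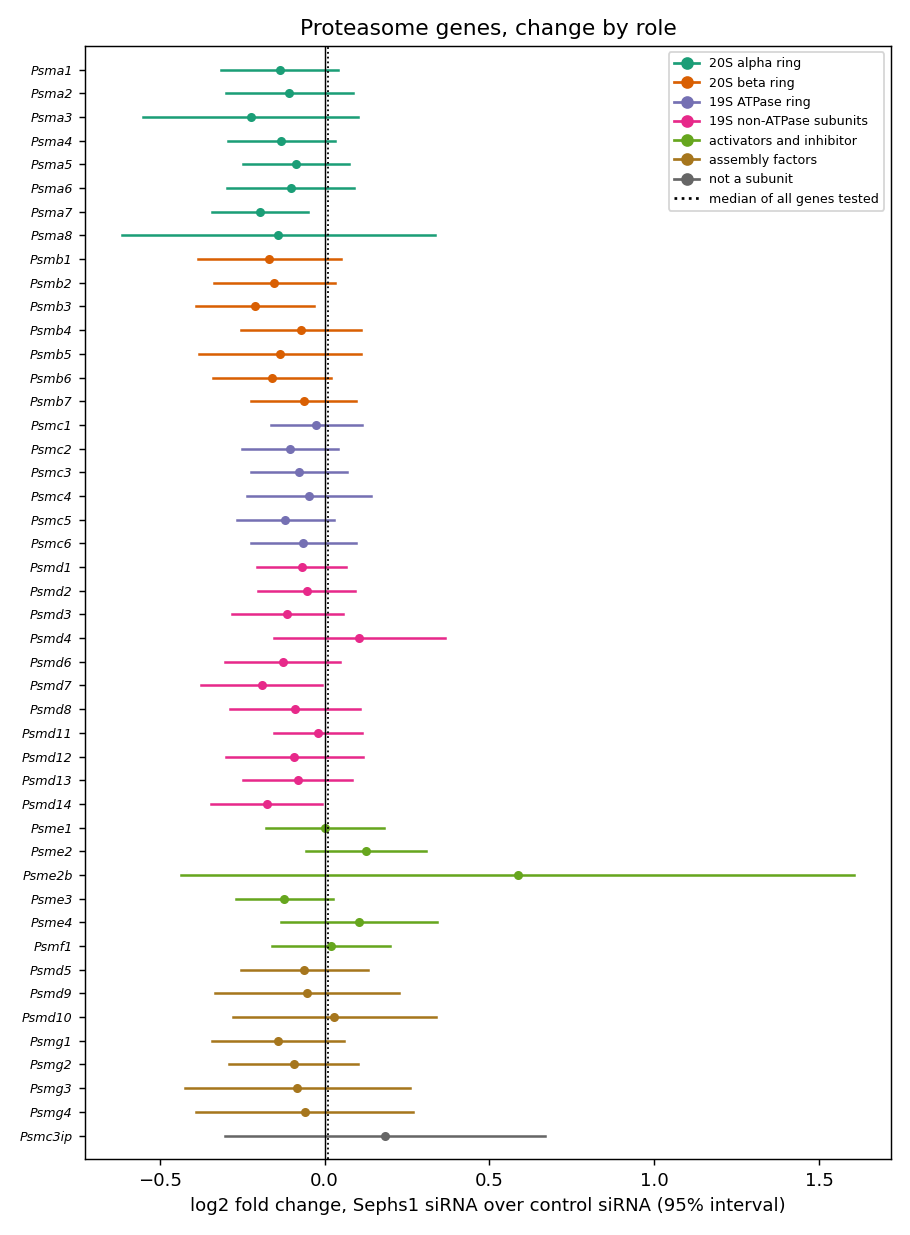
Log2 fold change of the 46 tested genes, *Sephs1* siRNA over control siRNA (edgeR on TMM-scaled counts), with 95% intervals, coloured by role. Most points lie just left of 0 and 4 intervals, those of *Psma7*, *Psmb3*, *Psmd7* and *Psmd14*, end below it, while the dotted line marks the median of all genes tested, 0.01.

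Compared within replicate pairs, 33 of 46 genes were lower with *Sephs1* siRNA in each of the 3 pairs, against 23.6% of all genes tested. The family median was -0.11, -0.08 and -0.08 in pairs 1, 2 and 3. The groups did not overlap for 13 of 46 genes with all *Sephs1* siRNA libraries lower, against 7.09% of all genes, and for 1 of 46 (*Psme2*) with all of them higher, against 7.8%. Control siRNA replicate 1 held the highest CPM of 28 of the 46 genes, and *Sephs1* siRNA replicates 2 and 3 held the lowest of 18 and 17. As a share of all reads before scaling, the family took 0.349%, 0.333% and 0.348% with *Sephs1* siRNA and 0.359%, 0.341% and 0.355% with control siRNA, so the shares of the groups overlap while each pair is lower with *Sephs1* siRNA. In bulk RNA, fewer cells with these transcripts and less of them per cell cannot be told apart.

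**Figure D3:**
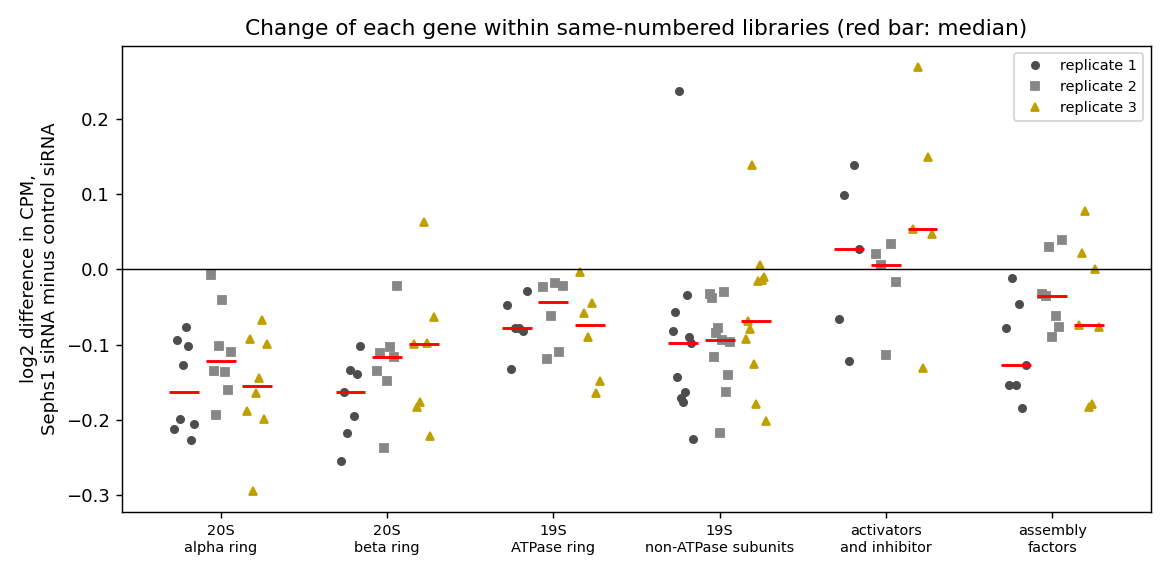
Log2 difference in CPM, *Sephs1* siRNA minus control siRNA, between libraries of the same replicate number, for each gene by role, with red bars at the medians. *Psme2b* (few reads) and *Psmc3ip* (no subunit) are not drawn. Nearly all points of the core rings and of the ATPases lie below 0 in the 3 pairs, and the activators and inhibitor lie around 0.

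In the 20S core, 8 of the 8 alpha ring genes had a log2 fold change below 0, with a median of -0.13 and 1 lower at an unadjusted p (3 with the block). That median was -0.085 without *Sephs1* siRNA replicate 3. *Psma7*, an alpha ring subunit gene on chromosome 2 from 180036367 to 180042464 (GRCm38), had 92.9, 89.9 and 93.1 CPM with *Sephs1* siRNA, against 109, 101 and 107 CPM with control siRNA. Each *Sephs1* siRNA library was below each control library. The means were 92.0 ± 1.74 and 105 ± 4.28 CPM (SD, n = 3 each), a log2 fold change of -0.20 (SE 0.06, edgeR unadjusted p = 0.0158, adjusted p = 0.476, adjusted p = 0.0849 with the block). *Psma3*, another alpha ring subunit, singled out after its values were seen for its wide spread between replicate numbers, had 147, 130.3 and 108 CPM with *Sephs1* siRNA, against 169, 149 and 132 CPM with control siRNA. Its groups overlap, each pair is lower with *Sephs1* siRNA, and its adjusted p was 0.7 from edgeR and 0.0729 with the block.

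In the beta ring, the 7 genes tested had log2 fold changes between -0.21 and -0.06, with a median of -0.15, 1 lower at an unadjusted p and 5 with the block, and the median was -0.086 without control siRNA replicate 1. *Psmb3*, on chromosome 11 from 97703434 to 97713500, encodes a structural subunit without a catalytic site and had 66.6, 59.2 and 64.9 CPM with *Sephs1* siRNA, against 77.5, 69.9 and 73.3 CPM with control siRNA. The groups do not overlap. Its log2 fold change was -0.21 (SE 0.07, edgeR unadjusted p = 0.0269, adjusted p = 0.514, adjusted p = 0.0747 with the block). *Psmb2*, also structural and the gene with the highest mean FPKM of the family, had 100.4, 93.2 and 89.3 CPM with *Sephs1* siRNA, against 112, 101 and 101 CPM with control siRNA. Its groups lay close together without overlap, at a log2 fold change of -0.15 (SE 0.08, edgeR adjusted p = 0.652).

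The 3 catalytic genes of the beta ring did not pass the edgeR test and their groups overlap. *Psmb6*, which cuts after acidic residues, had 85.2, 77.2 and 80.3 CPM with *Sephs1* siRNA, against 93.9, 83.7 and 93.7 CPM with control siRNA, a log2 fold change of -0.16 (SE 0.08, adjusted p = 0.629). *Psmb5*, which cuts after hydrophobic residues, had 36.4, 31.5 and 33.1 CPM with *Sephs1* siRNA, against 41.7, 33.9 and 35.5 CPM with control siRNA. In *Psmb5* the highest *Sephs1* siRNA library exceeded 2 of the 3 control libraries, and the log2 fold change was -0.14 (SE 0.10). *Psmb7*, which cuts after basic residues, had 73.3, 69.6 and 72.6 CPM with *Sephs1* siRNA, against 78.7, 70.7 and 75.8 CPM with control siRNA, and its 95% interval ran from -0.22 to 0.10 on the log2 scale. With the block, *Psmb6* (edgeR adjusted p = 0.124) and *Psmb5* (edgeR adjusted p = 0.169) were lower at an unadjusted p, and *Psmb7* was not. Without control siRNA replicate 1, the log2 fold change of *Psmb5* was -0.051.

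**Figure D4:**
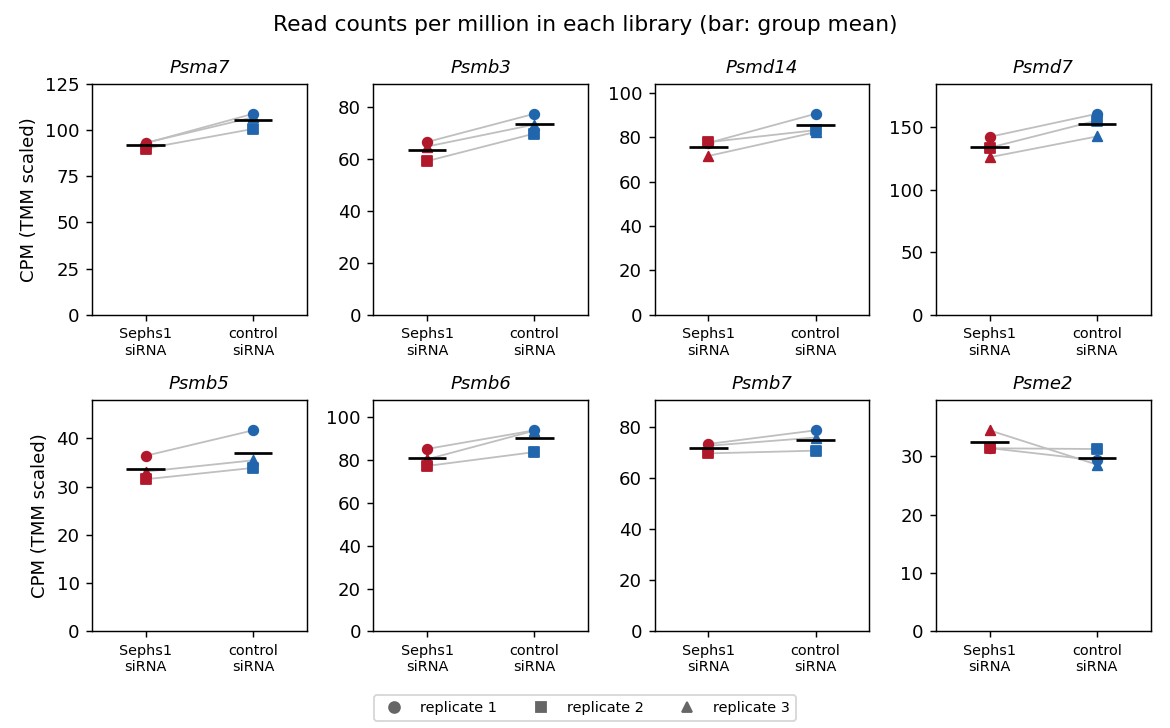
TMM-scaled CPM of 8 genes in each library, *Sephs1* siRNA at the left and control siRNA at the right of each panel, axes from 0, with lines joining libraries of the same replicate number and bars at the group means. The upper 4 genes do not overlap between groups and stand slightly lower with *Sephs1* siRNA, *Psmb5*, *Psmb6* and *Psmb7* overlap, and *Psme2* is higher with *Sephs1* siRNA in each library.

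In the 19S cap, the 6 ATPase genes had log2 fold changes between -0.12 and -0.02 with a median of -0.07, and 0 of 6 were lower at an unadjusted p (1, *Psmc5*, with the block). Of the 11 non-ATPase genes, 10 were below 0, with a median of -0.09 and 2 lower at an unadjusted p (4 with the block). *Psmd14*, on chromosome 2 from 61711694 to 61800376, encodes the deubiquitinase that removes the ubiquitin chain and had 77.4, 77.8 and 71.6 CPM with *Sephs1* siRNA, against 90.6, 83.2 and 82.3 CPM with control siRNA. Its groups do not overlap, and the log2 fold change was -0.18 (SE 0.07, edgeR unadjusted p = 0.0433, adjusted p = 0.565). *Psmd7*, on chromosome 8 from 107580380 to 107588482, encodes its partner in the lid of the cap and had 142, 133 and 126 CPM with *Sephs1* siRNA, against 161, 155 and 142 CPM with control siRNA. Its highest *Sephs1* siRNA library was just under its lowest control library, at a log2 fold change of -0.19 (SE 0.08, edgeR unadjusted p = 0.0438, adjusted p = 0.566).

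At the other end of the cap, *Psmd4* had 87.8, 69.0 and 88.4 CPM with *Sephs1* siRNA, against 74.5, 73.2 and 80.3 CPM with control siRNA. The *Sephs1* siRNA libraries lay on either side of the controls, 1 below all of them and 2 above, at a log2 fold change of 0.11 (SE 0.11, edgeR adjusted p = 0.809). That value was 0.038 without *Sephs1* siRNA replicate 1 and 0.214 without *Sephs1* siRNA replicate 2. *Psmd11*, a lid subunit and the lowest of the 31 in FPKM, hardly varied, with 59.6, 59.3 and 59.4 CPM with *Sephs1* siRNA, against 61.1, 60.5 and 59.2 CPM with control siRNA.

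Of the 6 activator and inhibitor genes, 5 had log2 fold changes above 0, with a median of 0.06 (0.02 without *Psme2b*, 0.023 without control siRNA replicate 3), and none passed the edgeR test. *Psme1* lay so near 0 that it was below it (-0.002) with RLE scaling. *Psme1*, which encodes PA28 alpha, had 19.9, 19.9 and 19.7 CPM with *Sephs1* siRNA, against 20.9, 19.6 and 18.99 CPM with control siRNA. The groups overlap, and the log2 fold change was 0.00 (95% interval -0.18 to 0.18). *Psme2*, which encodes PA28 beta, had 31.4, 31.4 and 34.5 CPM with *Sephs1* siRNA, against 29.3, 31.3 and 28.6 CPM with control siRNA. All its *Sephs1* siRNA libraries were above its controls, narrowly so against control replicate 2, and the log2 fold change was 0.13 (SE 0.08, edgeR unadjusted p = 0.147, adjusted p = 0.7).

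*Psme3*, the nuclear activator PA28 gamma, had 98.5, 94.8 and 92.0 CPM with *Sephs1* siRNA, against 107, 103 and 101 CPM with control siRNA. Its groups do not overlap, at a log2 fold change of -0.12 (SE 0.06, edgeR adjusted p = 0.652, and unadjusted p = 0.031 with the block). *Psme4*, the nuclear activator PA200, had 95.4, 109 and 98.3 CPM with *Sephs1* siRNA, against 86.6, 106 and 88.6 CPM with control siRNA. It was higher with *Sephs1* siRNA in each pair while the groups overlap, at a log2 fold change of 0.10 (SE 0.10, edgeR adjusted p = 0.802). *Psmf1*, the inhibitor PI31, had 29.7, 27.9 and 27.4 CPM with *Sephs1* siRNA, against 29.1, 28.2 and 26.5 CPM with control siRNA, a log2 fold change of 0.02 (SE 0.08).

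Of the 7 assembly factors, which chaperone the rings and are not part of the finished particle, 6 had log2 fold changes below 0, between -0.14 (*Psmg1*) and -0.05 (*Psmd9*), *Psmd10* stood at 0.03, and none passed the test in either fit. Their median of -0.06 was -0.124 without control siRNA replicate 2 and -0.023 without *Sephs1* siRNA replicate 2. *Psmc3ip* had 3.49, 4.78 and 3.56 CPM with *Sephs1* siRNA, against 2.9, 3.34 and 4.17 CPM with control siRNA, at a log2 fold change of 0.18 (SE 0.20). Its exons share 385 bases with the antisense gene *Mlx*, and those of *Psmb7*, *Psmd13* and *Psmd1* share 405, 342 and 252 bases with the antisense genes *Nek6*, *Sirt3* and *Htr2b*. The largest overlap was that of *Psmd9*, 1849 bases with the antisense gene *Gm26745*. *Psmd1* also shares 301 bases with *Gm21972* on the same strand, where strand cannot separate the reads. The library kit keeps strand, the counting setting is not given in the sources used here, and these counts may hold reads of the partner gene.

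The immunosubunits, which replace catalytic subunits of the core, were low in both groups. *Psmb8* had 0.55, 1.41 and 3.21 CPM with *Sephs1* siRNA, against 0.286, 0.434 and 0.785 CPM with control siRNA, a log2 fold change of 1.76 (SE 0.67, edgeR unadjusted p = 0.0356, adjusted p = 0.545, adjusted p = 0.0579 with the block). Its groups overlap, since *Sephs1* siRNA replicate 1 lies below control replicate 3. In FPKM, *Psmb8* amounted to 1.07%, 3.18% and 6.88% of *Psmb5*, the subunit it replaces, with *Sephs1* siRNA, against 0.489%, 0.901% and 1.56% with control siRNA. The log2 ratio differed by 1.70 (exact two-sided permutation test, p = 0.2, adjusted p = 0.4), where 3 libraries against 3 cannot go below 0.1. The adjustment covered the *Psmb8* and *Psmb10* ratios only, since *Psmb9* stood at 0 in control siRNA replicate 1.

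*Psmb9* had 21, 65 and 39 reads with *Sephs1* siRNA, against 0, 22 and 14 reads with control siRNA, and so was not tested by edgeR. It amounted to 0.455%, 1.5% and 0.952% of *Psmb6* with *Sephs1* siRNA, against 0%, 0.42% and 0.245% with control siRNA, and the groups of this ratio do not overlap. With 0.1 added to both FPKM values the log2 ratio differed by 1.82 (exact two-sided permutation test, unadjusted p = 0.1, the smallest the design allows). *Psmb10* stood at 6.41%, 7.89% and 7.64% of *Psmb7* with *Sephs1* siRNA, against 8%, 7.27% and 7.29% with control siRNA, and this log2 ratio differed by -0.04 (exact two-sided permutation test, p = 0.8). The highest of these ratios in any library was 8%.

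**Figure D5:**
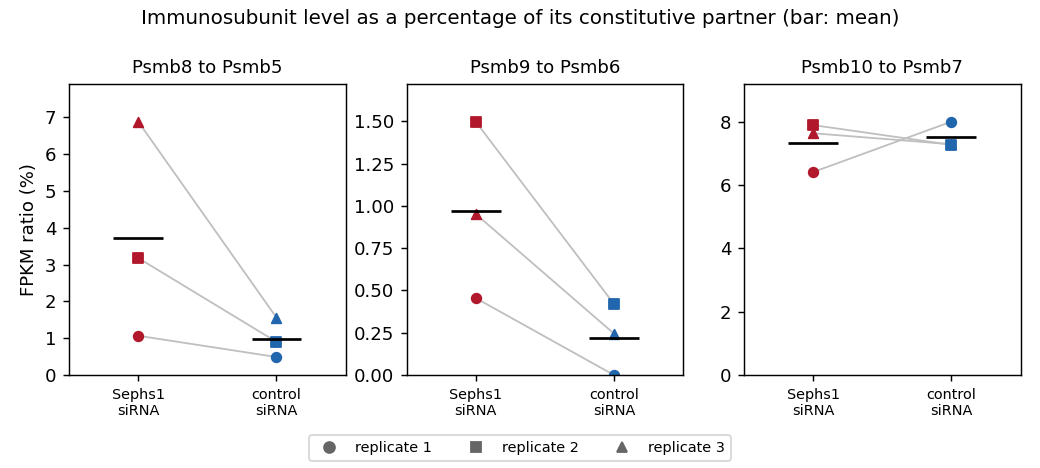
FPKM of each immunosubunit as a percentage of the constitutive subunit it replaces, *Sephs1* siRNA at the left and control siRNA at the right of each panel, axes from 0, with lines joining libraries of the same replicate number and bars at the means. *Psmb8* and *Psmb9* are higher with *Sephs1* siRNA in each pair, up to 6.88% and 1.5%, and *Psmb10* stays between 6.41% and 8% in both groups.

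Interferon-response genes give the setting of the PA28 values, as a list that was chosen with earlier results of these libraries known and is no independent evidence. Of its 20 genes tested, 18 were higher with *Sephs1* siRNA at an unadjusted p, against 4.98% of all genes, and 0 at an adjusted p from edgeR, against 0.0141% (4 higher with the block, against 1.65%), with a median log2 fold change of 0.92. *B2m*, the light chain of class I molecules and named after its values were seen, had 468, 627 and 706 CPM with *Sephs1* siRNA, against 370.1, 355 and 373 CPM with control siRNA. *Psme1* and *Psme2*, at log2 fold changes of 0.00 and 0.13, did not share that size of difference, and no test of the contrast was run.

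Of 29 genes measured whose products work with the proteasome, 24 had log2 fold changes below 0, against 48.0% of all genes tested, with a median of -0.05. At an unadjusted p, 1 was lower and 0 were higher, against 3.63% and 4.98% of all genes, so the count lower is near that of all genes. With the block, 9 were lower and 2 were higher, against 11.2% and 13.1%. *Rps27a*, which encodes ubiquitin fused to a ribosomal protein, had 348, 331 and 339.8 CPM with *Sephs1* siRNA, against 380.2, 380.5 and 372 CPM with control siRNA, a log2 fold change of -0.15 (SE 0.06, edgeR unadjusted p = 0.0347, adjusted p = 0.545). The next smallest p-values among lower genes belonged to *Shfm1*, a small cap subunit outside the naming rule, at -0.20 (SE 0.09), and *Pomp*, the maturation factor of the 20S core, at -0.17 (SE 0.09). Among the higher ones, *Ngly1*, the deglycosylase that helps to activate the product of *Nfe2l1*, stood at 0.14 (SE 0.07), the ubiquitin ligase gene *Ube3a* at 0.25 (SE 0.35) and the deubiquitinase gene *Uchl5* at 0.03 (SE 0.14). *Nfe2l1* itself, named for its role and after its values were seen, had 417, 412 and 463 CPM with *Sephs1* siRNA, against 419.6, 427 and 479 CPM with control siRNA, and its groups overlap.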

How the data were processed

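RNA of mouse articular chondrocytes was sequenced in 6 libraries, 3 per group. Per the methods and the submitters' processing notes, reads were aligned to mm10 by HISAT2 2.1.0 and quantified by StringTie 1.3.4d, with UCSC annotation. Unnormalized read counts are deposited for each gene. FPKM values made by the authors stand beside them, divided by transcript length and library size. The table has no columns of fold changes or p-values.

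A gene was tested if it had at least 1 read in each library (14223 of 24532), the filter of the study. Counts were scaled by TMM and tested with edgeR 4.0.16 (R 4.3.3), quasi-likelihood test, Benjamini-Hochberg adjustment over all genes tested, at 0.05. The standard error is the log2 fold change over the square root of F. DESeq2 1.42.0, RLE scaling, other filters, limma 3.58.1 on log2 FPKM with 1 or 0.1 added, a replicate block and leaving out each library were alternatives. Blocked fits without 1 pair were added after seeing the data. Fits were tested on simulated data.

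Deviations from the group means correlated at 0.47, 0.235 and 0.451 between libraries of the same replicate number, and at most at -0.027 across numbers, over 14223 genes. The deviations of a group cancel for each gene, so positive same-number values push the values across numbers down. The values across numbers are therefore no separate evidence of pairing. All same-number values exceeded 0.1, which was taken as pairing, although the calls with the block were already known. The sources name no pairing.

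Members, lists and tests were chosen with earlier results of these data known. A further marker of the leukocyte list is not reported here. Values are given for the 6 members with the smallest unadjusted p in each direction, the catalytic subunits, *Psmd14*, the activators, the inhibitor, the highest and lowest in FPKM, *Psmc3ip* and untested members. Outside the family they are given for *Sephs1*, the immunosubunits and up to 3 partner genes per direction, and for *B2m* and *Nfe2l1*, which were chosen after their values were seen. Coordinates and promoters came from RefSeq (GRCm38.p6), and exon overlaps from GENCODE on the same assembly.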

Additional observations from a re-analysis of the deposited data

How the results depend on the processing

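No member passed an adjusted p under 0.05 in any of the fits run. The count of members lower at an unadjusted p, 4 in the edgeR fit, was 2 with the filterByExpr filter, 0 with limma on log2(FPKM + 1), 0 with limma on log2(FPKM + 0.1) and 14 with the replicate block, and between 0 and 4 without 1 library. Over all genes, the count lower was 517 in the edgeR fit and 492 of 13994 with filterByExpr. It was 288 and 290 of 14223 in those limma fits, 1595 with the block and between 299 and 626 without 1 library. With the block, the member count was 9 without pair 2 and 7 without pair 3, where 1020 of 14351 and 1564 of 14411 genes were lower. The count of members higher, 0, was 1 with either FPKM fit, 1 with the block and without pair 2, and between 0 and 1 without 1 library. Over all genes, the count higher, 709, was 1021 with log2(FPKM + 1) and 1002 with log2(FPKM + 0.1). It was 1209 of 14351 with the block and without pair 2, and between 429 and 980 without 1 library. The count of all genes at an adjusted p, 2, was 211 with DESeq2, 234 with the replicate block, 1 with limma on log2(FPKM + 0.1), 0 with limma on log2(FPKM + 1) and between 0 and 3 without 1 library. The member median of -0.088 was -0.029 with log2(FPKM + 1) and -0.030 with log2(FPKM + 0.1), where the median of all genes was 0.041 and 0.062, and between -0.122 and -0.070 without 1 library. The FPKM values carry no TMM scaling, and the cause was not tested. Of 207 values of 16 named members under alternatives, 7 changed sign and none changed its call: *Psme1* was -0.002 with RLE scaling, -0.001 with DESeq2 and from -0.028 to 0.030 without 1 library, and *Psmf1* was from -0.031 to 0.043 without 1 library. Others that moved by over 1.5 times without 1 library were *Psmb5* (-0.209 to -0.051), *Psmb7* (-0.114 to -0.038), *Psmd4* (0.038 to 0.214), *Psme2* (0.079 to 0.153), *Psme2b* (0.224 to 0.779), *Psme4* (0.040 to 0.191) and *Psmc3ip* (0.021 to 0.335), none of them called. The *Psmb10* to *Psmb7* log2 ratio, -0.045, was from -0.103 to 0.047 without 1 library, and that of *Psmb8* to *Psmb5*, 1.695, from 1.061 to 2.406. Of the genes and lists given in the report, the block brought *Sephs1*, 4 interferon-response genes, 1 chondrocyte marker and 2 fibroblast markers past an adjusted p of 0.05, and no member or partner gene. The chondrocyte marker was *Col9a1*, at a blocked log2 fold change of -0.22. The 2 fibroblast markers moved in opposite directions, *Col1a2* at -0.26 and *Dcn* at 0.24. Depth limits *Psmb11*, *Psme2b*, *Psmb8* and *Psmb9*, which had few reads.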
